A study of Mus musculus with 2 samples.

Results

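The 10 genes described here encode the heat-inducible chaperones Hspa1a and Hspa1b, the constitutive Hspa8, the nucleotide exchange factor Hsph1, the co-chaperone Dnajb1, the cytosolic Hsp90 pair Hsp90aa1 and Hsp90ab1, the mitochondrial chaperonin Hspd1 with its lid Hspe1, and the small heat shock protein Hspb1. Regulatory elements were assigned to them by distance: an element was taken when its midpoint lay within 25 kb of any GENCODE M21 start of a gene on the list. That gave 12 of the 18431 elements in the table. Elements within 1000 bp of such a start are called promoter elements and the others distal. Distance does not show which gene an element acts on.

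The elements came from STARR-seq, an assay in which genomic fragments are placed inside the transcription unit of a reporter plasmid, so that the amount of RNA copied from a fragment reports its activity outside its own chromosome. The host cells were primary Th2 (T-helper 2) cells from the C57BL/6NJ mouse strain, activated in culture. These lymphocytes drive allergic and antiparasite immunity by secreting interleukin-4, interleukin-5 and interleukin-13. They had been transiently transfected with the episomal library. There was 1 group of 2 output libraries, named as biological replicates 1 and 2 but carrying the same donor record, with a starting quantity of 30 ug and a size range of 200 to 400. All cells had received 3 days of anti-CD3e (0.25 ug/mL), an antibody that triggers the T-cell receptor complex, and 3 days of anti-CD28 (1 ug/mL) against its costimulatory partner. They also received 4 days of anti-interferon-gamma (2 ug/mL), 4 days of interleukin-2, and also interleukin-4. The labels name no heat treatment and no unstimulated group, and the age of the animals is given as unknown. The input experiment named as a possible control was not analysed here.

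The authors deposited 1 signed log fold, p-value and q-value per element from both libraries together. The fold was read as log2 of output over input, although no source used here states its base or denominator. A positive element therefore gave more RNA than its share of the input, and a negative element gave less. Every q-value in the authors' deposited table was below 0.01. The table holds no value per library and no read counts, so the spread between replicates and the depth are unknown, and all folds, p-values and q-values below are the authors' own without an SD. A promoter missing from the table either was not tested or missed the q-value threshold, and these cases cannot be told apart.

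Heat shock proteins are molecular chaperones. The Hsp70 proteins bind exposed hydrophobic stretches of unfolded chains in a cycle driven by ATP, J-domain proteins such as Dnajb1 bring them clients, Hsp90 finishes the folding of kinases and receptors, and Hspd1 with Hspe1 forms a folding chamber in mitochondria. Their stress-induced transcription depends on heat shock factor 1 (HSF1), which binds as a trimer to the heat shock element, a run of alternating GAA and TTC units separated by 2 bases each. In T cells, activation raises protein synthesis and with it the demand on these chaperones.

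The sequences below are RefSeq GRCm38.p6 genome sequence, the same build as the mm10 table, and are shown because the heat shock units distinguish the promoters that follow. They read 5′ to 3′ on the strand of the gene, with the units in capitals. The first pair covers positions -250 to -1 from the starts of Hspa1a (chr17:34972157-34972406, minus strand) and Hspa1b (chr17:34959239-34959488, minus strand), counting the start itself as 0. In this pair 4 units are marked, of which 1 differs from the GAA or TTC unit by 1 base. In each of the shorter sequences only exact units are marked. Those labelled for Dnajb1, Hsp90ab1 and Hspb1 hold a run of only 2 units. The stretch shown for each gene holds its longest run at any protein-coding start, and its other starts can have shorter runs or none. The Hsp90ab1 run lies at the start chr17:45572555, and its other protein-coding starts had no run of 2 units.
Hspa1a promoter: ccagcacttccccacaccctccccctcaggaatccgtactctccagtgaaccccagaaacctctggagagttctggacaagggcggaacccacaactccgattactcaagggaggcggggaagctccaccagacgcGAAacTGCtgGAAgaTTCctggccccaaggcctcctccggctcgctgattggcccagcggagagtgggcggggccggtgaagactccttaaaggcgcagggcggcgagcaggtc
Hspa1b promoter: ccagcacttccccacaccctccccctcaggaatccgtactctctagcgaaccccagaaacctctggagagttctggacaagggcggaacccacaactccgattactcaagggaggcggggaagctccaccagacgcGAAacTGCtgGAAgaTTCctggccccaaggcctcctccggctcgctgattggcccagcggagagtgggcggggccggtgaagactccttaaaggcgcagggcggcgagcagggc
Hspd1 heat shock element: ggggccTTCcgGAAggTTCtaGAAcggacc
Hspe1 heat shock element: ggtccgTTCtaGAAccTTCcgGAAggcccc
Hspa8 heat shock element: gcacccTTCtgGAAggTTCtaagac
Hsph1 heat shock element: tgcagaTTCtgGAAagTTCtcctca
Hsp90aa1 heat shock element: gggttcTTCcgGAAggTTCcggagg
Dnajb1 heat shock element: ggggcgGAAggTTCtggagg
Hsp90ab1 heat shock element: agattgTTCtgGAAgcctgg
Hspb1 heat shock element: ggggcaGAAccTTCctggcc
The shorter sequences lie at chr1:55088053-55088082 (Hspd1 on the minus strand and Hspe1 on the plus strand), chr9:40801215-40801239 (plus), chr5:149636282-149636306 (minus), chr12:110696381-110696405 (minus), chr8:83608215-83608234 (plus), chr17:45572592-45572611 (minus) and chr5:135887816-135887835 (plus).

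Of the 10 genes, 8 had an element within 25 kb, against 54.7% of all 21938 protein-coding genes. These 8 are not independent, since Hspa1a and Hspa1b share the same 4 elements, and Hspd1 and Hspe1 share 1. Of the 12 elements, 11 were positive and 1 negative, and 71.5% of all elements were positive. Their median log2 fold was 1.15 and their range -1.40 to 4.10. Only 3 were promoter elements, and they served 4 genes. The promoters of Hspa1a and Hspa1b were positive, and a single negative element spanned the starts of Hspd1 and Hspe1. Across all protein-coding genes, 9.85% had a positive and 17.5% a negative promoter element. The other 6 genes (Hspa8, Hsph1, Dnajb1, Hsp90aa1, Hsp90ab1 and Hspb1) had no promoter element. All 9 distal elements were positive, with a median log2 fold of 1.15. Of these, 2 lay at promoters of other genes, and 34.4% of all promoter elements were positive. The 7 outside all promoters also had a median of 1.15. That is near the background of elements outside promoters, of which 89.7% were positive with a median of 1.15.

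**Figure D1:**
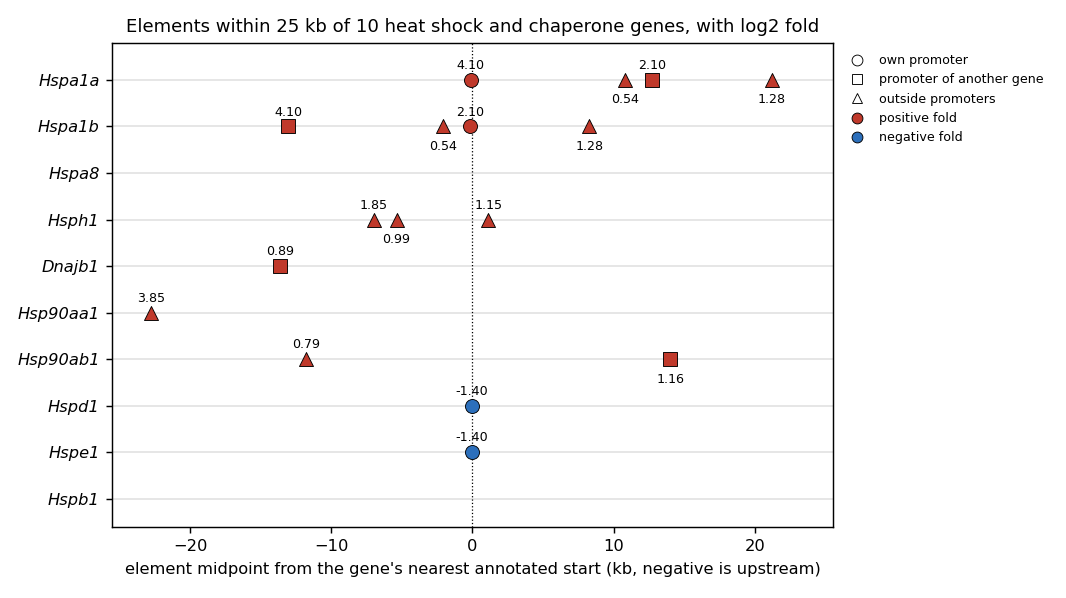
Positions of the 12 elements along each gene's neighbourhood, as distance in kb from the nearest start of the gene to the element's midpoint, with the authors' log2 fold printed at each. Circles are the gene's own promoter, squares another gene's promoter and triangles other sites, with positive elements red, negative ones blue and elements within reach of several genes drawn at each, and Hspa8 and Hspb1 have none within 25 kb.

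Hspa1a and Hspa1b encode nearly identical inducible Hsp70 proteins from neighbouring genes without introns, and their promoters gave positive elements of unequal size. The Hspa1a element (chr17:34971851-34972725, 875 bp) had a log2 fold of 4.10, or 17.1-fold, with a q-value of 6.62e-11 in the authors' deposited table. It reached from -569 to 305 from the start of Hspa1a (ENSMUSG00000091971.3). It also covered the start of Hspa1l, a testis-expressed Hsp70 gene that is transcribed away from it. Among promoter elements, of which 34.4% were positive, only 42 of the 2081 positive ones (2.02%) had a larger fold. The Hspa1b element (chr17:34959076-34959750, 675 bp) had a log2 fold of 2.10, or 4.29-fold, with a q-value of 3.79e-09 in the authors' deposited table. It reached from -512 to 162 from the start of Hspa1b (ENSMUSG00000090877.3), and 275 of 2081 positive promoter elements (13.2%) exceeded it.

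The Hspa1a value was 4.00-fold that of Hspa1b, a difference in log2 fold of 2.00, although the sequences printed above are almost the same. Between -250 and -1 the genes shared 247 of 250 bases (98.8%), with the same heat shock units, the same CCAAT box and the same 3 SP/KLF sites (GGGCGG). The 143 bases by which the Hspa1a element extends further into the gene were identical in Hspa1b. They hold another exact run of 2 heat shock units, at 208 to 215, which the Hspa1b element does not reach. Upstream the likeness fell away, to 57.9% over the 57 bases found only in the Hspa1a element. Over the stretch of the Hspa1b element, from -512 to 162, 82.8% of bases matched. The longest identical stretch was 201 bp, and library fragments of the stated size range can lie almost wholly within the shared sequence. No source used here states how reads that match both copies were assigned. The fold and rank of each of these elements, and the difference between the genes, are therefore uncertain. With 1 value per element the difference was not tested.

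**Figure D2:**
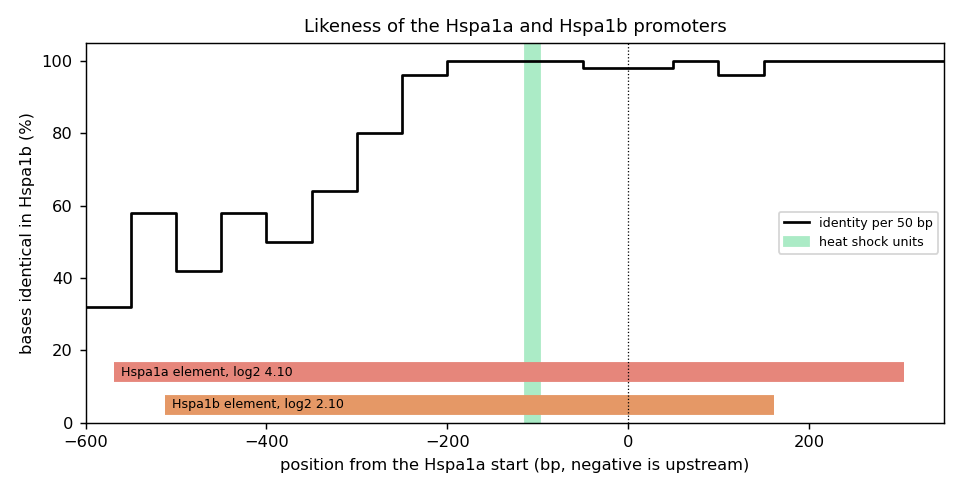
Percent of bases in the Hspa1a promoter identical to Hspa1b, in bins of 50 bp by position from the start, with horizontal bars for the extent of each gene's element. Identity was 100% from -200 to -51 and 32% in the bin farthest upstream.

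Positive and negative promoters in this table differed in GC content, so each promoter was also set against those of similar base composition. Positive promoter elements had a median GC content of 56.6% and negative ones of 67.8%. The Hspa1a and Hspa1b elements had 59.2% and 59.7%, in the band of 55 to 60% where 67.0% of 788 promoter elements were positive. Within that band 9 elements (1.14%) exceeded Hspa1a and 56 (7.11%) exceeded Hspa1b. The part of base composition in the sign of the fold was not tested.

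The chaperonin genes Hspd1 (ENSMUSG00000025980.14, minus strand) and Hspe1 (ENSMUSG00000073676.4, plus strand) are transcribed in opposite directions from a shared promoter. Its element (chr1:55087576-55088600, 1025 bp) was negative, with a log2 fold of -1.40, which is 2.64-fold lower output than input, and a q-value of 8.15e-06 in the authors' deposited table. The midpoint lay 44 bp upstream of the Hspe1 start and 64 bp upstream of an Hspd1 start, in annotated UTR sequence of Hspd1. This promoter carried the longest exact heat shock run of the 10 genes, 4 units at chr1:55088059-55088076, printed above on both strands. It also held 9 SP/KLF sites, 2 ETS sites (CCGGAAG), 3 E-boxes (CACGTG), 3 NRF1 sites (GCGCNNGCGC) and 1 CCAAT box. Among 1173 promoter elements within 100 bp of its width, 95.1% held an SP/KLF site and 58.7% a CCAAT box. ETS sites were found in 29.2% of them, E-boxes in 23.7% and NRF1 sites in 29.8%. The GC content of the chaperonin element was 72.1%. Of the 1319 promoter elements with at least 70% GC, 1.97% were positive and the median log2 fold was -1.59. Among all 3971 negative promoter elements, 1660 (41.8%) had a more negative fold, which puts this element near the middle of its class.

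**Figure D3:**
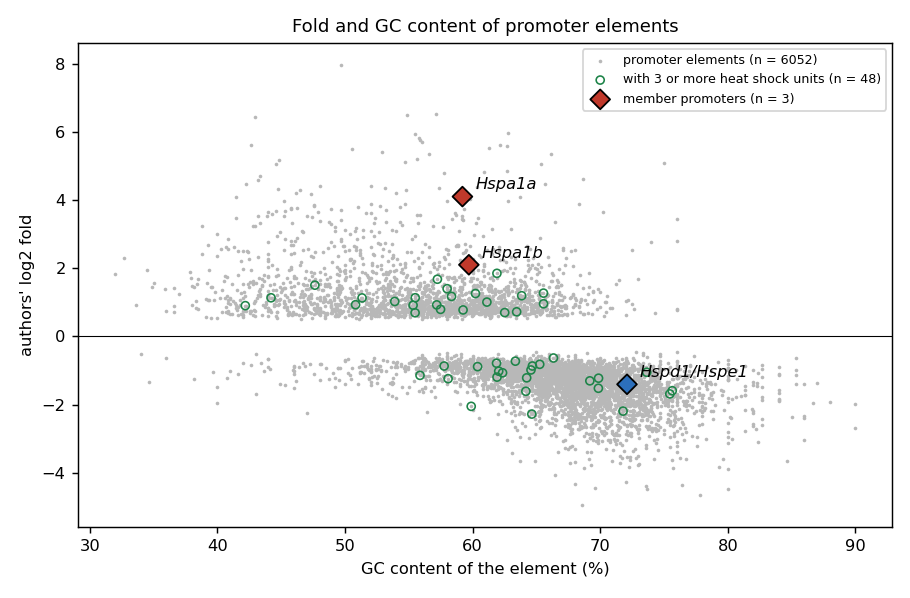
Authors' log2 fold of promoter elements against their GC content in percent. The Hspa1a, Hspa1b and Hspd1/Hspe1 elements are labelled, and the 48 elements with a run of 3 or more heat shock units are circled in green. Folds are mostly positive at low and negative at high GC content, and the shared chaperonin promoter lies among the latter at 72.1%.

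The 10 genes differed in the longest run of exact heat shock units that their promoters held. Counts of units below are units within 1 run. In windows from -250 to 49 of all protein-coding transcript starts, 0.525% of 93513 windows held 3 or more units and 13.7% held 2 or more, with windows of neighbouring starts overlapping. Among the 10 genes, 5 had a window with a run of 3 or more units, namely Hspa8, Hsph1, Hsp90aa1, Hspd1 and Hspe1. None of these 5 had a positive promoter element, Hspd1 and Hspe1 shared the negative one, and the other 3 had none. Of all 327 protein-coding genes with 3 or more units, 16.8% had a positive promoter element, 21.1% a negative one and 63.3% none, so a count of 0 in 5 is near the background. In the other 5 genes the longest exact run was 2 units, and Hspa1a and Hspa1b were among them. Hspb1 and Hsp90ab1 each had a window with 2 separate runs of 2 units. A run of 3 units with at most 1 mismatch, as at -114 in Hspa1a, was found in 6.35% of windows. All 10 genes had such a run in at least 1 window, so it did not set Hspa1a and Hspa1b apart. The share counts windows, and several of these genes have more than 1.

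The Hspa8 gene (ENSMUSG00000015656.17), which encodes the constitutive Hsc70, had no element within 25 kb. Its nearest element lay 67533.5 bp away, at a log2 fold of 2.09. The window of its start at chr9:40801302 nevertheless held 2 separate runs of 3 units, at -239 and -81. Hspb1 (ENSMUSG00000004951.10), which encodes a small heat shock protein that holds unfolded proteins, also had none, and its nearest element lay 52643.5 bp away at a log2 fold of 0.96. Dnajb1 (ENSMUSG00000005483.10), the J-domain partner of inducible Hsp70, had 1 distal element (chr8:83594151-83594950) with a log2 fold of 0.89, 13642.5 bp upstream and at the promoter of Tecr, an enzyme of fatty acid elongation. A stretch of 154 bp of it has a copy at 97.4% identity elsewhere in the genome.

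The distal elements outside all promoters numbered 7, and all were positive. The table holds 12362 elements outside promoters. Of these 7, 6 carried at least 1 AP-1 site (TGANTCA), which binds the Fos and Jun proteins induced by T-cell activation, against 44.1% of all elements outside promoters. None of the 7 held a run of 3 heat shock units, which is near the background, since 0.833% of all elements outside promoters held 3 or more. AP-1 sites become more frequent as elements widen, from 36.4% of elements within 100 bp of a width of 225 bp to 52.6% near a width of 725 bp. The element with the largest fold and an AP-1 site is printed for each gene that has one, on the plus strand with AP-1 sites in capitals, from chr12:110725576-110725875 (the last 300 of 725 bp), chr17:34950851-34951075 and chr5:149643251-149643475.
element near Hsp90aa1: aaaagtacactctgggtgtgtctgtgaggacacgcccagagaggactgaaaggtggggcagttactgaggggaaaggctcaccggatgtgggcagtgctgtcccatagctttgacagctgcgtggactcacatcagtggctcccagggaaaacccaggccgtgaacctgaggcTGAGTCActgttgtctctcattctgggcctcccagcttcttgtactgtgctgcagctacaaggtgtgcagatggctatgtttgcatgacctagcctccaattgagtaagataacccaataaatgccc
element near Hspa1b: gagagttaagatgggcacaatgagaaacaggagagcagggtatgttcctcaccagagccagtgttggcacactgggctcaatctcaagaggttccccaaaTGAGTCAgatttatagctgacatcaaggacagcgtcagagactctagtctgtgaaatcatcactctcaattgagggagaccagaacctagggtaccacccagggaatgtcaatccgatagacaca
element near Hsph1: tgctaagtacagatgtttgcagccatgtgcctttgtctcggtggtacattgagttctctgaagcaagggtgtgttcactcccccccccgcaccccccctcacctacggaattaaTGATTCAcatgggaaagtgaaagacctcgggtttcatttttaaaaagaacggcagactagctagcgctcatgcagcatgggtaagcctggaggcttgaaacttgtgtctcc
The Hsp90aa1 stretch has its site 239 bp from the element's midpoint, and the other 2 have theirs 9 and 5 bp from it.

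Near Hsp90aa1 (ENSMUSG00000021270.13), the stress-inducible Hsp90, the only element was distal and strong. The element at chr12:110725151-110725875 had a log2 fold of 3.85, or 14.4-fold, with a q-value of 1.35e-06 in the authors' deposited table. It was intergenic, 22785 bp upstream of the gene's outermost start (chr12:110702728) and closer to Wdr20, at 12431 bp. The promoter window of that outermost start held a run of only 2 heat shock units. The run of 3 units printed above for Hsp90aa1 lies at another start, chr12:110696395. That start is farther from the element than the distance used for assignment. Of the 11089 positive elements outside promoters, 373 (3.36%) had a larger fold. Hsp90ab1 (ENSMUSG00000023944.14), the constitutive form, had 2 distal elements. The element at chr17:45555501-45555975, with a log2 fold of 1.16, lay 1 bp from the start of Nfkbie, which encodes an inhibitor of NF-kappaB. The element at chr17:45584951-45585150 was intergenic and 200 bp wide. It had a log2 fold of 0.79 and held none of the 14 kinds of site searched.

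Around Hsph1 (ENSMUSG00000029657.15), whose product exchanges nucleotide on Hsp70, 3 elements were positive. The strongest, at chr5:149643251-149643475, had a log2 fold of 1.85 and a q-value of 5.66e-05 in the authors' deposited table. It lay 6987 bp upstream, in an intron of the long noncoding RNA gene Gm20005. Besides AP-1 it held a STAT site (TTCNNNGAA) and an ISRE site (GAAANNGAAA). These were found in 14.8% and 12.9% of elements outside promoters within 100 bp of its width. The second, at chr5:149641501-149642000, had a log2 fold of 0.99 and overlapped an exon of Gm20005. The third, at chr5:149617851-149618275, had a log2 fold of 1.15 and lay in an intron of Hsph1, 1110 bp from the start of a retained-intron transcript. The latter 2 carried 2 AP-1 sites each.

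Between and beside the Hspa1 genes lay 2 weaker elements. The element at chr17:34950851-34951075 had a log2 fold of 1.28 and a q-value of 3.85e-07 in the authors' deposited table. It lay 8275 bp downstream of the Hspa1b start, in an exon of the small nucleolar RNA host gene 1110038B12Rik, with Snord52 at its midpoint. The element at chr17:34961201-34961475 was intergenic, 2100 bp upstream of Hspa1b. Its log2 fold of 0.54 was exceeded by 11012 of the 11089 positive elements outside promoters (99.3%).

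**Figure D4:**
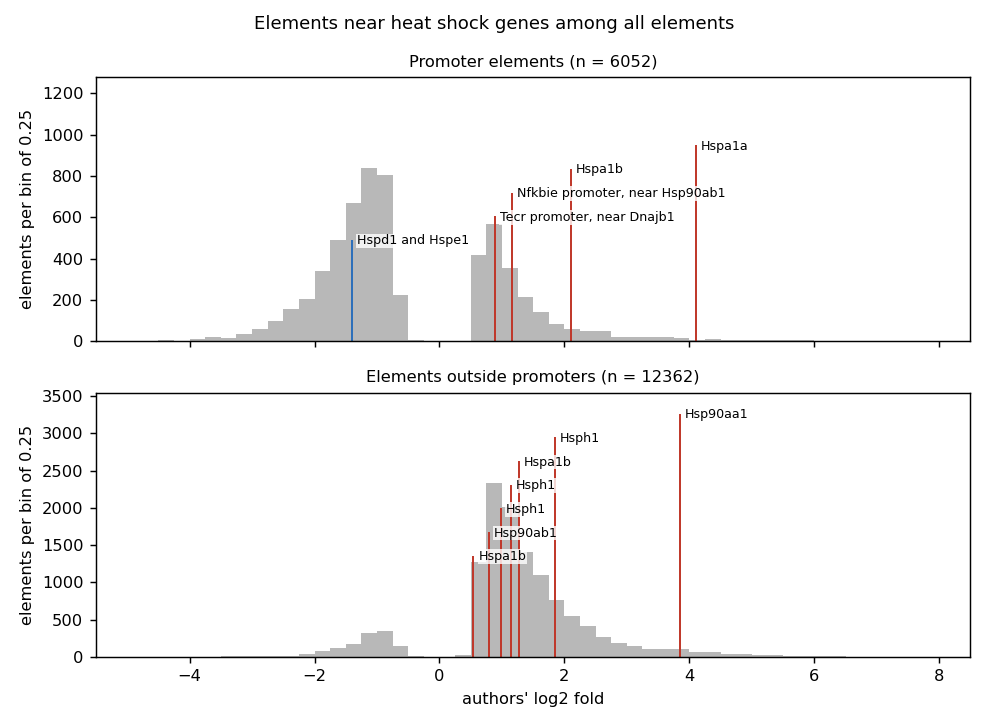
Distribution of the authors' log2 fold over all promoter elements and all elements outside promoters, with the elements near the 10 genes marked. The median was -0.98 for promoter elements and 1.15 for the others, and the Hspa1a and Hsp90aa1 elements lie in the right tails at 4.10 and 3.85.

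Over the whole table, 151 elements (0.820%) held a run of 3 or more exact heat shock units, and 119 of them were positive (78.8%, exact 95% binomial interval 71.4 to 85.0%), against 71.5% of the elements without. The 151 were spread over both classes. Among promoter elements, 32.1% of those with fewer than 2 units were positive, 42.4% of those with 2 and 47.9% of the 48 with 3 or more (exact 95% binomial interval 33.3 to 62.8%). Outside promoters, 89.3%, 91.2% and 93.2% were positive in the same order. These intervals cover counting error over elements only. Over the same groups of promoter elements, median width was 750, 875 and 1000 bp, and median GC content was 65.5, 62.6 and 61.9%. The part of width and GC content in these shares was not tested. No promoter element with 3 or more units reached a log2 fold of 2, and 302 of the 6004 others did (5.03%). In the GC band of 55 to 60%, 9 of 13 promoter elements with such a run were positive (69.2%), against 67.0% of the band. Below 55% GC the counts were 6 of 6, against 87.6% of the band, and at 60 to 65% they were 6 of 17 (35.3%), against 38.1%. At 65 to 70% GC 2 of 7 were positive (28.6%), against 9.95% of the band, and at 70% or more none of 5 was, against 1.97%. With so few elements in a band, nothing was read from these differences.

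**Figure D5:**
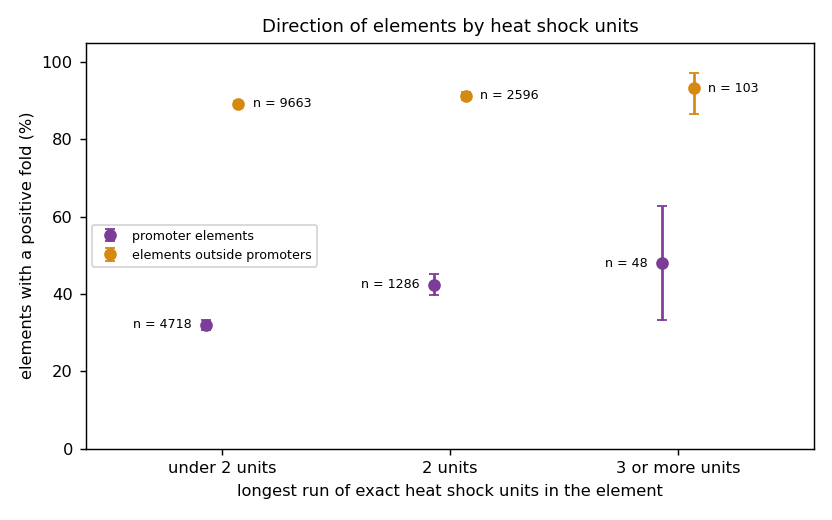
Percent of elements with a positive fold by the longest run of exact heat shock units, for promoter elements and elements outside promoters, with exact 95% binomial intervals as bars. In promoter elements the percentages were 32.1, 42.4 and 47.9, and in the others 89.3, 91.2 and 93.2. The groups of promoter elements also differed in median width and GC content.

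At the level of genes, the 63.3% of genes with a run of 3 or more units that had no promoter element compare with 73.6% of all protein-coding genes. Of the 13 genes with a run of 4 or more units, 10 had no promoter element and 1 had a positive one. The 2 with a negative one were Hspd1 and Hspe1, which share the single element described above.

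The wider chaperone network was read from a list of 75 other genes, of which 14 had a positive and 14 a negative promoter element (18.7% each, against 9.85% and 17.5% of all protein-coding genes), and 47 had none. The HSF genes had no promoter element in any of 3 cases. Among the other Hsp70 and Hsp110 genes, 4 of 11 were positive and 3 negative. Of 19 other J-domain genes, 3 were positive and 4 negative, and of 15 Hsp90 co-chaperones and relatives, 3 were positive and 2 negative. Of the 6 BAG genes, nucleotide exchange factors of Hsp70, none was positive and 3 were negative. Of 9 other small heat shock genes 1 was positive, and of 12 chaperonin and prefoldin subunits 3 were positive and 2 negative. Counts this small were not tested.

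Among the positive promoters of that list, Hspa1l had the largest fold because it shares the Hspa1a element. It was followed by Hspbp1, a nucleotide exchange factor for Hsp70, at a log2 fold of 2.41. Sugt1, an Hsp90 co-chaperone, had 1.30, and Hspa9, the mitochondrial Hsp70, had 1.26. Among the negative promoters, the largest were Dnajc21, a J-domain protein of ribosome assembly, at -3.51, and Hspa4l, an Hsp110 relative, at -1.99. Fkbp5, an Hsp90-binding immunophilin, had -1.90, and Bag5, a BAG protein, had -1.77. Of the 28 genes on the list with a promoter element, 5 had 3 or more exact heat shock units in the promoter element with the largest absolute fold. Such runs were found in 0.793% of all promoter elements. These 5 genes were chosen after their values were seen. Hspa9 at 1.26, Tcp1 at 1.01, Stip1 at 0.93 and Dnajb6 at 0.70 were positive, and Bag2 at -0.87 was negative.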

How the data were processed

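STARR-seq output of 2 libraries from activated Th2 cells was analysed from 1 deposited element table on mm10. The authors deposited a signed log fold per element, read here as log2 (the base is an assumption), and p-values and q-values on a linear scale. The table has no header. The aligner, caller and test were not given in the sources used here, and the depth is unknown. In all 18431 elements the last column equalled end minus start plus 1, so starts count from 1.

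Elements were joined to GENCODE M21 starts and GRCm38.p6 sequence (RefSeq) with pandas 2.3.3 and pysam 0.24.0. The 17 elements on other scaffolds entered only the count of all elements. Sites were searched on both strands, with no mismatch unless stated. Copies elsewhere in the genome were sought with blastn 2.17.0, and the Hspa1a and Hspa1b loci were aligned with Biopython 1.88. Intervals are exact binomial (scipy 1.17.1). The counting of runs and the assignment by distance were checked on simulated data. No test across libraries could be made.

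Named are all 10 genes with every element within 25 kb. Of 75 other chaperone genes (Cct6a did not match the annotation as protein-coding) at most 4 with the largest absolute fold per direction are named, and of elements with a heat shock run elsewhere the 3 with the largest positive fold. The genes and lists were chosen with earlier results of these data known. Alternatives changed the window, the promoter distance, the q-value and fold thresholds, the starts used and the removal of copied elements.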

Additional observations from a re-analysis of the deposited data

How the results depend on the processing

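Of 61 alternative values, 47 stayed within 1.5 times the count or within the interval of the share, and 14 moved. The 47 include the removal of elements with a near-identical copy, which could change nothing. None of the 12 elements had a copy at 95% identity over 80% of its length. With absolute log2 folds of 1 or more required, the 9 distal elements fell to 5 and the 11 positive elements to 7, and a window of 10 kb also gave counts of 5 and 7, but not of the same elements: the window drops the Hsp90aa1 element at 3.85, which the fold threshold keeps, and keeps the Hspa1b element at 0.54, which the threshold drops. Removing elements with a copy of at least 200 bp elsewhere, an alternative chosen after seeing the data, left 1 of 3 promoter elements and 2 of 4 genes with a promoter element, since it drops Hspa1a and Hspa1b. Of the other chaperone genes, 28 had a promoter element, 16 with the fold threshold and 14 at a q-value below 0.001. The 14 positive ones became 6 and 5 under these settings, and the 14 negative ones became 9 at a q-value below 0.001. The share of positive elements among those with a heat shock run was 78.8% over all elements, 47.9% in promoter elements, 93.2% outside promoters and 87.0% at a q-value below 0.001. No paired analysis was possible because there is 1 group and the table holds 1 value per element, so no replicate could be left out either.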

Other observations

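Outside the 10 genes, the 3 elements with a run of 3 or more heat shock units and the largest positive fold lay 47781.5 bp or more from the nearest protein-coding start. The first (chr8:85602601-85603650) had a log2 fold of 3.97 and a GC content of 47.2%. Its nearest protein-coding start was that of Dnaja2, a J-domain co-chaperone, 47781.5 bp away. The other 2 lay on chromosome 12 (chr12:114657276-114657475 and chr12:114764276-114764725), with log2 folds of 3.63 and 3.39, and the nearest protein-coding start was that of Adam6a, over a megabase away in each case. Genes of other annotated types were not counted in these distances and may lie closer. Copies of these 3 elements elsewhere in the genome were not sought.

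Between 25 and 50 kb of the 10 genes lay 4 further elements, each at the promoter of another gene. The promoters of Vars, a valyl-tRNA synthetase, Coq10b and Wdr20 were positive at log2 folds of 2.24, 1.52 and 0.93, and that of B3glct was negative at -1.82.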
